A study of Mus musculus with 11 samples.

Results

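This account covers 6 classical cadherin genes of the mouse, Cdh1, Cdh2, Cdh3, Cdh4, Cdh6 and Cdh11, in the caudal neural plate and neural tube around closure. They were chosen by name from the 18193 genes that the array platform's annotation ties to a probe set with exactly 1 gene symbol. Together they have 12 such probe sets, and the probe set of highest mean over the 11 arrays leads for each gene. Of the 6 genes, 5 passed a filter that kept the 13338 genes with a mean log2 signal of at least 4.3, and Cdh1 did not.

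At E9.5 there were 3 arrays of closed neural tube and 3 of open neuroepithelium, and at E8.5 there were 2 of closed neural tube and 3 of open neuroepithelium, all from C57BL/6 embryos. RNA of each litter pool was hybridized to 1 whole-genome Affymetrix mouse array. Closed tissue came from rostral to the point where the tube closes and open tissue from behind it, so closure and axial level differ together. All tissue was loosened in 2.5% pancreatin and 0.5% trypsin, for 8 min at E9.5 and 5 min at E8.5, and was taken with the notochord attached, so protease time and stage cannot be told apart.

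Classical cadherins are calcium-dependent adhesion receptors. Each spans the cell membrane, binds cadherins of the neighbouring cell and is linked through beta-catenin and alpha-catenin to actin. Its tail also binds p120-catenin. Type I cadherins include E-cadherin (Cdh1), the cadherin of embryonic epithelia, N-cadherin (Cdh2), which takes its place in the neural plate, P-cadherin (Cdh3) and R-cadherin (Cdh4). Type II cadherins include K-cadherin (Cdh6), known from neural folds and neural crest, and OB-cadherin (Cdh11), known from mesenchyme.

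The arrays gave different patterns for the 6 genes. Cdh6 signal was higher in closed than in open tissue at both stages. Cdh11 signal was highest in open neuroepithelium at E9.5, above open tissue at E8.5 and above closed tissue of its own stage. Cdh1 signal was low, and it was lower in closed than in open tissue and lower at E9.5 than at E8.5. For Cdh2, Cdh3 and Cdh4 no difference passed the test. Each difference is on the log2 scale and subtracts open from closed tissue, or the earlier stage from the later. Its standard error (SE) comes from a limma fit across all genes tested, and an adjusted p is that fit's Benjamini-Hochberg value, called when below 0.05. Array signal depends on the probe, so levels are compared between samples and not between genes.

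**Figure D1:**
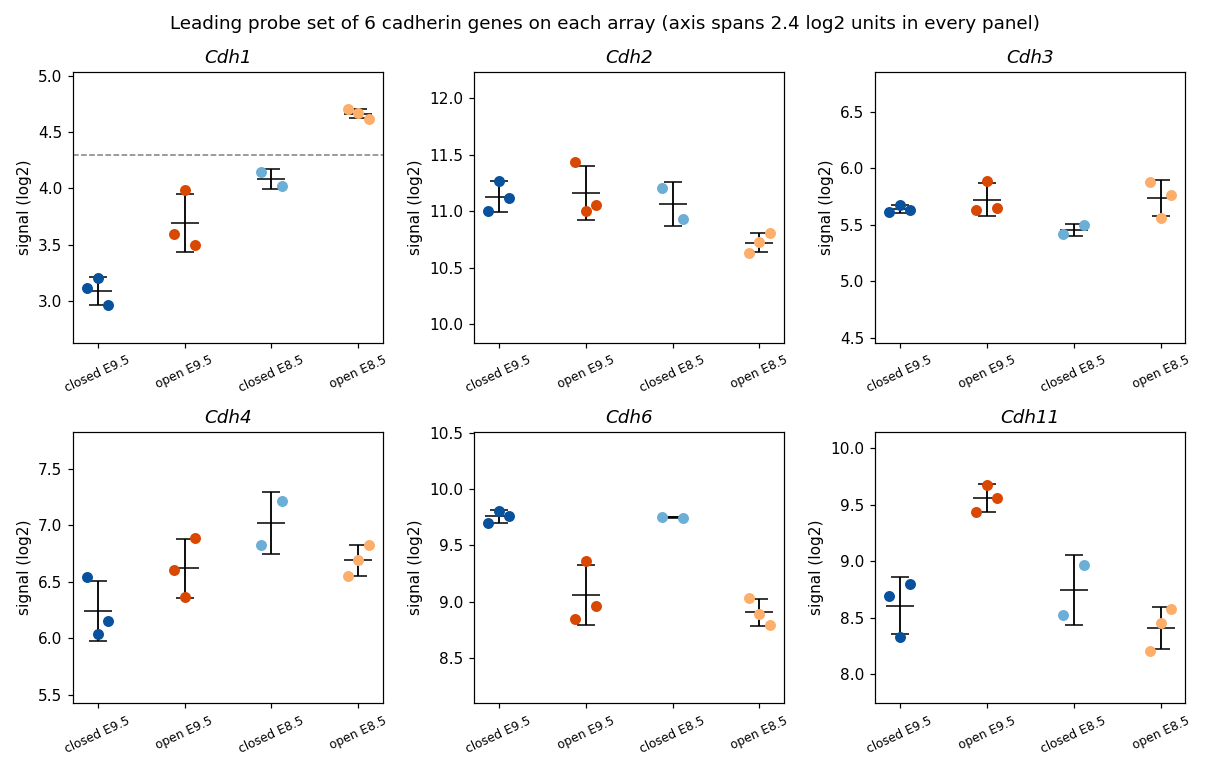
Log2 signal of the leading probe set of each cadherin gene on each of the 11 arrays, by group. Points are arrays, horizontal bars the group mean with 1 SD, and the dashed line in the Cdh1 panel is the filter level of 4.3. Closed arrays lie above open arrays of the same stage for Cdh6, open E9.5 arrays stand above the rest for Cdh11, and the 4 groups of Cdh1 do not overlap.

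Array quality differed in a way that touches some of the values. For the control transcripts Gapdh and Actb, the 3-prime minus 5-prime signal (log2), which is larger for degraded or shortened RNA, was 2.20 and 2.48 in open E9.5 replicates 1 and 2, against 1.14 to 1.82 on the other arrays. Closed E8.5 replicate 2 had more signal of the somite genes Meox1 and Twist1 (8.11 and 5.90) than closed E8.5 replicate 1 (6.30 and 4.15). Of 12 neural progenitor markers, 12 reached the filter level in closed tissue and 10 in open tissue at each stage. Reaching that level does not tell tissues apart, since 10 or 11 of 12 endoderm markers also reached it in each group. Sox2, which marks neural progenitors, lay between 11.34 and 11.63 in closed E9.5 and between 10.99 and 11.15 in open E9.5 arrays, and between 11.33 and 11.41 in closed E8.5 and 11.23 and 11.30 in open E8.5 arrays.

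Cdh1 encodes E-cadherin. Its signal was 3.11, 3.21 and 2.96 in closed E9.5 tissue and 3.60, 3.98 and 3.50 in open E9.5 tissue. At E8.5 it was 4.14 and 4.02 in closed tissue and 4.70, 4.67 and 4.62 in open tissue. The groups kept apart in the order open E8.5, closed E8.5, open E9.5 and closed E9.5, with no overlap between neighbours. Only the open E8.5 mean (4.66 ± 0.04, SD, n = 3) reached the filter level of 4.3. The means of the other groups lay between it and the lowest value on the arrays, 2.37, where a difference depends on the background left in the values.

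In the limma fit without the filter, over all 18193 genes, Cdh1 was lower in closed tissue at E9.5 (-0.60, SE 0.12, adjusted p = 0.00804) and at E8.5 (-0.58, SE 0.13, adjusted p = 0.0227). It was also lower at E9.5 than at E8.5 in closed tissue (-0.99, SE 0.13, adjusted p = 0.00148) and in open tissue (-0.97, SE 0.12, adjusted p = 0.000514). In that fit 4.2% of genes were called lower in closed tissue at E9.5 and 2.46% at E8.5, and 1.17% and 1.08% were called lower at E9.5 in closed and in open tissue. Closed E9.5 minus open E8.5 tissue, the extremes of the order, was -1.57. No fold is given, since the closed E9.5 mean (3.10) is well below the filter level. The difference of regions did not change detectably with stage (interaction -0.02, 95% interval -0.41 to 0.37). The E8.5 difference lost its call without any 1 of the 5 E8.5 arrays (adjusted p 0.0589 to 0.166), and the E9.5 difference lost it without open E9.5 replicates 1 and 2 together (-0.41, adjusted p = 0.17). In tissue samples, fewer cells of a type and less RNA per cell cannot be told apart.

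Markers of epithelia that the dissection could carry along were read beside Cdh1. The summed linear signal of 18 surface ectoderm markers was 1523 to 1930 in closed E9.5, 1478 to 1613 in open E9.5, 1675 to 1878 in closed E8.5 and 2049 to 2469 in open E8.5 arrays. That of 12 endoderm markers was 846 to 932, 1080 to 1186, 977 to 1115 and 1177 to 1369 in the same groups. The endoderm sum had the same order of regions as Cdh1 at both stages, and the surface ectoderm sum had it at E8.5 but overlapped between regions at E9.5. Single markers were mixed. Over both stages 3 of 10 tested endoderm markers fell in closed tissue, 2 rose (Foxa2 0.73, Trh 0.83) and 5 did not pass. Of 16 tested surface ectoderm markers 5 fell, 2 rose (Tfap2c 1.66, Tfap2a 0.71) and 9 did not pass. Of all tested genes 6.82% fell and 5.13% rose. Of the surface ectoderm markers 13, 15, 16 and 16 reached the filter level in those groups, and the keratins Krt14 and Krt17 were below it on every array. The keratins Krt8, Krt18 and Krt19 were above it, with group means from 6.77 to 9.32. At E8.5 they were lower in closed tissue, by -1.10, -0.88 and -1.19 (adjusted p = 0.0268, 0.0488 and 0.0231). At E9.5 they differed by 0.51, 0.01 and 0.24 and did not pass. Krt18 was also on a list of notochord markers, and the notochord was taken with the tissue. Of 6 tested genes of that list, 4 were lower and 0 higher in closed tissue at E8.5, where 3.38% of all tested genes were lower. At E9.5, 2 were higher and 0 lower, where 2.75% of all tested genes were higher. The epithelial adhesion gene Epcam had 5.47, 6.41 and 5.41 in closed E9.5 and 7.69, 8.43 and 7.25 in open E9.5 tissue, and 6.76 and 6.27 in closed E8.5 and 7.53, 7.52 and 7.78 in open E8.5 tissue. Their part in the Cdh1 differences was not tested.

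Cdh2 encodes N-cadherin. Its leading probe set gave 11.0001, 11.2724 and 11.1177 in closed E9.5 and 11.4369, 10.9985 and 11.0537 in open E9.5 tissue. At E8.5 it gave 11.2051 and 10.9285 in closed and 10.6321, 10.729 and 10.8055 in open tissue. The open E8.5 arrays were the lowest and overlapped with no other group, while the other 3 groups overlapped. Closed tissue differed from open tissue by -0.03 at E9.5 (95% interval -0.32 to 0.25, adjusted p = 0.928) and by 0.34 at E8.5 (0.02 to 0.67, adjusted p = 0.278). E9.5 differed from E8.5 by 0.06 in closed tissue (-0.26 to 0.38, adjusted p = 1) and by 0.44 in open tissue (0.15 to 0.73, adjusted p = 0.0869). The last of these passed with array weights (0.63, adjusted p = 0.000605), which gave open E9.5 replicate 1, the highest Cdh2 array, a weight of 6.29 against 0.31 to 2.47 for the others. A second Cdh2 probe set had a difference of 0.06 (SE 0.13) for that comparison, with all arrays between 9.8984 and 10.3053.

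Within each array the Cdh1 signal was set against the Cdh2 signal, as a description of unequal change. Cdh1 minus Cdh2 averaged -8.03 in closed E9.5, -7.47 in open E9.5, -6.98 in closed E8.5 and -6.06 in open E8.5 tissue. The ratio was lower by 0.57 in closed than in open tissue at E9.5 and by 0.92 at E8.5, and was lower at E9.5 than at E8.5 by 1.05 in closed and 1.41 in open tissue. In open E9.5 replicate 2 it was -7.01, between closed E8.5 replicates 1 and 2 (-7.06 and -6.91). Since Cdh1 lay near background, these are sizes on the array's scale.

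Cdh3 encodes P-cadherin. It had 5.62, 5.68 and 5.63 in closed E9.5 and 5.63, 5.89 and 5.65 in open E9.5 tissue. At E8.5 it had 5.42 and 5.49 in closed and 5.88, 5.56 and 5.77 in open tissue. The groups lay within 0.28 of each other, with closed E8.5 lowest and without overlap to its neighbour, closed E9.5. Closed minus open was -0.08 at E9.5 (95% interval -0.33 to 0.17, adjusted p = 0.769) and -0.28 at E8.5 (-0.56 to 0.00, adjusted p = 0.344). E9.5 minus E8.5 was 0.18 in closed tissue (-0.10 to 0.47) and -0.01 in open tissue (-0.27 to 0.24). The second Cdh3 probe set lay between 3.14 and 3.88, below the filter level on every array.

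Cdh4 encodes R-cadherin, best known from retina and brain. It had 6.54, 6.04 and 6.15 in closed E9.5 and 6.60, 6.37 and 6.89 in open E9.5 tissue. At E8.5 it had 6.83 and 7.21 in closed and 6.55, 6.69 and 6.83 in open tissue. Closed E8.5 was the highest group and closed E9.5 the lowest, and those groups did not overlap. The difference E9.5 minus E8.5 in closed tissue was -0.78 (SE 0.20, 95% interval -1.21 to -0.35) and missed the threshold after adjustment (adjusted p = 0.0728). It passed with quantile normalization (-0.75, adjusted p = 0.041), with RNA quality (3-prime minus 5-prime signal) as a covariate (-0.79, adjusted p = 0.0132), and without closed E9.5 replicate 1 (-0.93, 0.0434) or open E9.5 replicate 3 (-0.78, 0.0437). In the other 19 of 23 alternatives it did not pass, and over all 23 the difference ranged from -0.97 to -0.49. Closed minus open was -0.38 at E9.5 (-0.76 to 0.01, adjusted p = 0.276) and 0.33 at E8.5 (-0.10 to 0.77, adjusted p = 0.556). The E9.5 difference passed with array weights (-0.39, adjusted p = 0.0449). A second Cdh4 probe set had 6.54 in closed E8.5 replicate 2 and 5.05 in replicate 1, so the closed E8.5 mean rests on arrays that lie apart.

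Cdh6 encodes K-cadherin, and its gene spans bases 13028699 to 13176407 of mouse chromosome 15 (RefSeq, GRCm38.p6). Among the members past the filter, it is the one whose difference of regions was called at both stages. Of the 6 genes it alone had an entry in the table of RefSeq promoters. That entry's start lies inside the span just given, downstream of the gene's 5-prime end, so it is 1 annotated start and not the outermost. The 250 bases before it are shown, on the minus strand at chr15:13173676-13173925, with the single CANNTG match (an E-box, the general motif whose variants Snail, Zeb and Twist factors bind) in capitals.
Cdh6 promoter: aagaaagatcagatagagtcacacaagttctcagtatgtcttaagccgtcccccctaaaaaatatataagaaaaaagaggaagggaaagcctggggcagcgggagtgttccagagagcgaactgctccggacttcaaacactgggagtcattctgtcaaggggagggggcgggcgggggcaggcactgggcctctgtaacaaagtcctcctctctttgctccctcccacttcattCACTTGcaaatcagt
The window had 51.2% G and C. Both strands were searched for 5 motifs. CANNTG began at position -15 relative to the start, and 66.2% of the 32851 promoter windows of that length held it. GGGCGG, a GC box, began at -84 and -80 in overlapping matches, and 32.7% of windows held it. The E-box CAGGTG, which CANNTG includes, had no match, and 17.2% of windows held it. No match was found for the TATA box TATAAA, held by 12.4% of windows. The same was true of the box CCAAT, held by 33.8%. These are matches of letters in this window.

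Cdh6 signal was 9.70, 9.81 and 9.76 in closed E9.5 and 8.85, 9.36 and 8.97 in open E9.5 tissue. At E8.5 it was 9.75 on both closed arrays and 9.04, 8.89 and 8.80 on the open arrays. Every closed array stood above every open array at both stages, and the closed groups overlapped with each other, as did the open groups. Cdh6 was higher in closed tissue at E9.5 (0.70, SE 0.13, a 1.62-fold difference, adjusted p = 0.00598) and at E8.5 (0.84, SE 0.15, 1.79-fold, adjusted p = 0.00415). Over both stages the difference was 0.77 (SE 0.10, adjusted p = 0.000247). E9.5 minus E8.5 was 0.01 in closed (95% interval -0.32 to 0.34) and 0.15 in open tissue (-0.14 to 0.45), and the interaction was -0.14 (-0.59 to 0.30, adjusted p = 0.876).

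A second Cdh6 probe set gave 7.19, 7.42 and 7.53 in closed E9.5 and 6.65, 6.49 and 6.85 in open E9.5 tissue. At E8.5 it gave 7.21 and 7.48 in closed and 6.78, 6.97 and 6.70 in open tissue. Closed arrays again lay above all open arrays, by 0.72 at E9.5 (SE 0.15, adjusted p = 0.0141) and by 0.53 at E8.5 (SE 0.17, adjusted p = 0.12, not past the threshold). Open E9.5 replicate 2, which had the largest 3-prime to 5-prime signal, was the highest open array with the leading probe set (9.36) and the lowest with the second (6.49). With that signal as a covariate the leading probe set differed by 0.76 at E9.5 (adjusted p = 0.00143) and 0.81 at E8.5 (adjusted p = 0.00102).

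Neural crest and neural progenitor markers were read beside Cdh6. The summed signal of 9 neural crest markers was 1758 to 2012 in closed E9.5 and 768 to 802 in open E9.5 arrays, and 1880 to 3720 in closed E8.5 and 886 to 1151 in open E8.5 arrays. Genes of high signal weigh most in these linear sums. Crabp1 was 11.04 in closed E8.5 replicate 2 and 8.46 in replicate 1, and Ednrb had a mean of 9.78 in each closed group. All 9 reached the filter level in closed tissue and 8 in open tissue. Over both stages 4 of the 9 rose in closed tissue, 1 fell and 4 did not pass, where 5.13% of all tested genes rose and 6.82% fell. Those that rose were Ednrb, Foxd3 (2.08), Ets1 (1.58) and Tfap2b (1.56). Against the direction of Cdh6, the receptor gene Ngfr fell (-0.73, adjusted p = 0.00186), and Snai2 differed by -0.46 (adjusted p = 0.131). Ednrb, a receptor of migrating crest that dorsal neural tube also carries, rose in closed tissue by 4.51 over both stages (SE 0.16, adjusted p = 6.15e-09). Sox10, a marker of neural crest, lay between 5.83 and 6.57 on all arrays. The summed signal of 12 neural progenitor markers was 11503 to 12270 in closed E9.5 and 4971 to 5906 in open E9.5, and 11765 to 13204 in closed E8.5 and 5853 to 6353 in open E8.5 arrays. Of these 12, 10 rose and 0 fell in closed tissue over both stages, against the same 5.13% and 6.82% of all tested genes. The part of these cells in the Cdh6 difference was not tested.

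Cdh11 encodes OB-cadherin. Its signal was 8.69, 8.33 and 8.80 in closed E9.5 and 9.43, 9.68 and 9.56 in open E9.5 tissue. At E8.5 it was 8.53 and 8.97 in closed and 8.21, 8.46 and 8.57 in open tissue. All open E9.5 arrays stood above the other 8 arrays, and the other 3 groups overlapped with their neighbours. Cdh11 was lower in closed than in open tissue at E9.5 (-0.95, SE 0.16, a 1.93-fold difference, adjusted p = 0.0029). At E8.5 closed minus open was 0.34 (SE 0.18, 95% interval -0.07 to 0.74, adjusted p = 0.489). In open tissue Cdh11 was higher at E9.5 than at E8.5 (1.15, SE 0.16, a 2.21-fold difference, adjusted p = 0.00172), and in closed tissue the stages differed by -0.14 (-0.54 to 0.26, adjusted p = 0.987).

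The difference of regions in Cdh11 changed between the stages, with an interaction of -1.29 (SE 0.25, adjusted p = 0.0303). The interaction lost its call with the mean of both Cdh11 probe sets (-0.87, adjusted p = 0.156) and without any 1 of 8 arrays, all but closed E8.5 replicate 1, open E9.5 replicate 3 and closed E9.5 replicate 3 (adjusted p 0.055 to 0.139). Without open E9.5 replicates 1 and 2 together, which leaves 1 open E9.5 array that is assumed to vary like the other groups, it was -1.29 (adjusted p = 0.175), and the E9.5 difference of regions and the difference of stages in open tissue kept their size but not their call (-0.96, adjusted p = 0.059, and 1.15, adjusted p = 0.0562). The second Cdh11 probe set lay near the filter level, with 4.33, 4.31 and 4.03 in closed E9.5 and 4.33, 5.09 and 4.37 in open E9.5 tissue, and 3.94 and 4.42 in closed E8.5 and 4.07, 3.91 and 4.29 in open E8.5 tissue. Its closed minus open difference at E9.5 was -0.38 (SE 0.20) and did not pass.

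Mesoderm and blood markers were read beside Cdh11. The summed signal of 16 mesoderm and somite markers was 2417 to 2848 in closed E9.5, 2063 to 2281 in open E9.5, 2564 to 3417 in closed E8.5 and 1404 to 1819 in open E8.5 arrays, and 8, 11, 12 and 11 of them reached the filter level. Osr1 of that list was below it on every array. These linear sums weigh most on genes of high signal, such as Pax3, Pdgfra and Dll1 (closed E9.5 means 9.91, 9.53 and 9.29). The mean log2 signal of the 16 markers overlapped between the regions at E9.5, with 5.28 to 5.35 in closed and 5.26 to 5.44 in open arrays. At E9.5, of 10 tested genes of the list, Pax3 (1.09) and Dll1 (1.12) rose in closed tissue and 7 did not pass. Tbx6 fell (-1.99, adjusted p = 0.00281). Of all tested genes 2.75% rose and 5.79% fell there. Pdgfra, a receptor of mesenchyme, had 9.70, 9.45 and 9.43 in closed E9.5 and 9.99, 10.24 and 9.86 in open E9.5 tissue, and 8.66 and 9.24 in closed E8.5 and 8.77, 8.78 and 9.18 in open E8.5 tissue. In open tissue it was higher at E9.5 than at E8.5 by 1.12 (SE 0.17, adjusted p = 0.00293). The summed signal of 12 endothelium and blood markers was 2396 to 5887, 5044 to 7334, 898 to 1022 and 330 to 874 in the same 4 groups, with 6 of 12 at the filter level in each, and the endothelial genes Cdh5, Pecam1, Tek and Emcn were below it on every array. The endothelial genes Kdr, Esam and Cldn5 were above it in every group, with means of 5.23 to 5.92, 5.36 to 5.51 and 4.49 to 4.77. Kdr was higher in closed tissue at E9.5 (0.69, adjusted p = 0.0098), against the direction of Cdh11. In open tissue 3 of 6 tested genes of this list were higher at E9.5 than at E8.5 and 3 did not pass. The 3 were the globin genes Hbb-y (5.18), Hbb-bh1 (3.23) and Hba-x (2.36), with adjusted p = 0.000799, 0.00534 and 0.000548. Of all tested genes 3.61% were higher there. The part of these cells in the Cdh11 differences was not tested.

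**Figure D2:**
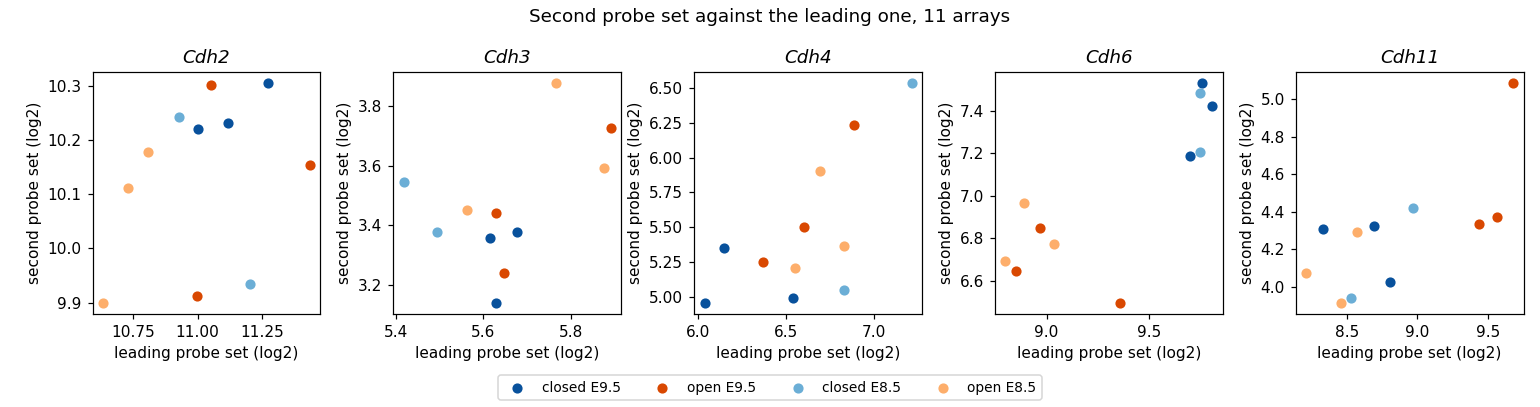
Log2 signal of the second probe set (vertical) against the leading one (horizontal) on the 11 arrays for the 5 cadherin genes with more than 1 probe set, coloured by group. For Cdh6 both probe sets separate closed from open arrays, while for Cdh2 they do not order the arrays alike and for Cdh3 and Cdh11 the second probe set lies near or below the filter level of 4.3.

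The comparison of closed with open tissue asked which cadherins differ across the closing neural tube. At E9.5, 2 of 5 tested members passed, Cdh6 higher and Cdh11 lower, where 8.54% of all tested genes passed (2.75% higher, 5.79% lower). At E8.5, 1 of 5 passed, Cdh6, where 7.17% of genes passed (3.79% higher, 3.38% lower). Over both stages 1 of 5 passed, Cdh6 again, against 11.9% (5.13% higher, 6.82% lower). With closed and open arrays of the same stage and replicate number as a block, the calls of members did not change, and 2221 genes passed at E9.5, against 1139 without the block. Cdh1, outside these counts, passed in each of these comparisons when the filter was dropped.

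The comparison of stages asked which cadherins differ between E9.5 and E8.5 in tissue taken at the same place relative to the junction. That place need not be the same axial level at both stages. In open tissue 1 of 5 members passed, Cdh11, against 5.02% of genes (3.61% higher, 1.42% lower). In closed tissue 0 of 5 passed by limma, against 2.42% of genes (0.96% higher, 1.46% lower), and Cdh4 alone, 1 of 5, was below 0.05 before adjustment. For the interaction 1 of 5 passed, Cdh11, against 1.25% of genes (0.3% higher, 0.952% lower). With the replicate block 452 in place of 167 genes passed, Cdh11 among them (-1.37, adjusted p = 0.00345). With 5 members tested, these counts say little beyond the genes named.

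**Figure D3:**
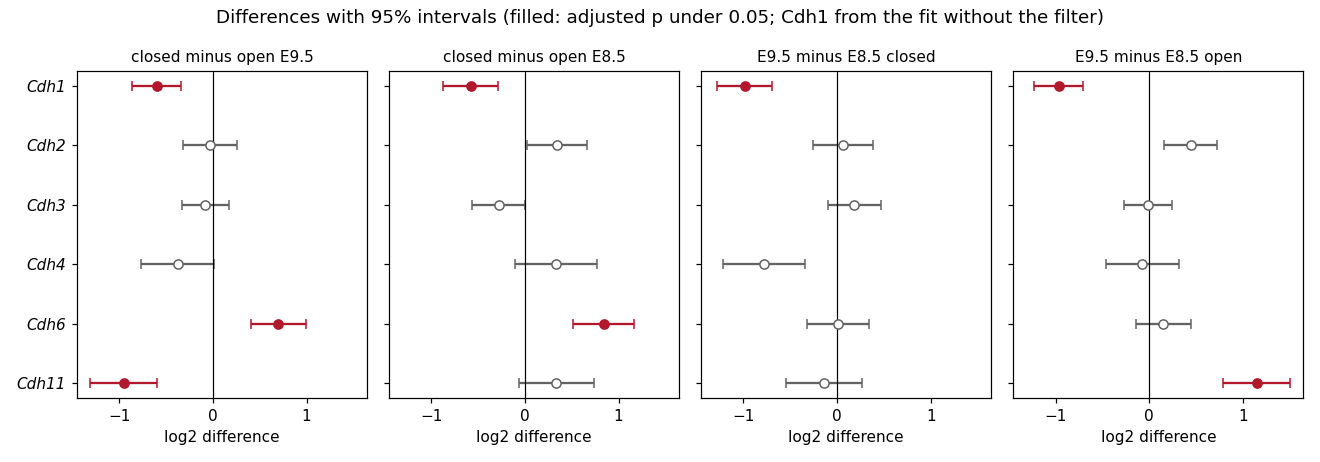
Log2 differences of the 6 cadherin genes in the 4 comparisons, with 95% intervals of the limma fit (for Cdh1, the fit without the filter); filled points have an adjusted p below 0.05. Cdh6 lies right of 0 in both comparisons of regions (0.70 and 0.84), Cdh11 left of 0 at E9.5 (-0.95) and right of 0 for the stages in open tissue (1.15), and Cdh1 left of 0 in all 4.

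With 2 or 3 arrays a group, many genes have groups that do not overlap, so separation is read against all genes. Groups did not overlap for 22.5% of tested genes between closed and open tissue at E9.5, where Cdh6, Cdh11 and Cdh1 did not overlap. At E8.5 the share was 27.5%, and Cdh2, Cdh4 and Cdh6 (closed higher) and Cdh1 and Cdh3 (closed lower) did not overlap. Between the stages it was 21.2% in closed tissue (Cdh3 higher, Cdh1 and Cdh4 lower at E9.5) and 21.8% in open tissue (Cdh2 and Cdh11 higher, Cdh1 lower at E9.5).

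Ctnnd2, Arvcf and Lima1 differed between regions among the genes of catenins and other proteins tied to cadherins. Of 11 tested genes of the cadherin-catenin complex, 2 rose, 1 fell and 8 did not pass in closed tissue over both stages, where 5.13% of all tested genes rose and 6.82% fell. The median difference was -0.08, against 0.00 for all tested genes. Ctnnd2, delta-catenin of neural cells, rose by 0.80 (SE 0.13, adjusted p = 0.00148) and its relative Arvcf by 0.79 (SE 0.14, adjusted p = 0.00198). Lima1, which links the complex to actin, was lower (-0.70, SE 0.16, adjusted p = 0.0127). Beta-catenin (Ctnnb1), which binds the cadherin tail, differed by -0.04 (SE 0.04) and had group means of 13.41, 13.43, 13.36 and 13.41 in closed E9.5, open E9.5, closed E8.5 and open E8.5 tissue. Alpha-catenin (Ctnna1) was lower in closed tissue at E9.5 (-0.31, adjusted p = 0.0451). For the stages 0 of 11 passed by limma in either tissue, and 2 in closed and 1 in open tissue were below 0.05 before adjustment.

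Among 13 further classical cadherins, 11 had a probe set and 5 passed the filter. Over both stages Cdh10 was lower in closed tissue (-1.0, SE 0.15, adjusted p = 0.0007) and Cdh22 higher (0.42, SE 0.07, adjusted p = 0.00202), both type II cadherins. At E9.5 Cdh10 differed by -1.51 (adjusted p = 0.000422), with a closed mean of 4.76 and an open mean of 6.28. At E8.5 it differed by -0.49 (adjusted p = 0.341). VE-cadherin (Cdh5), which marks endothelium, was below the filter level on every array.

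Regulators of E-cadherin were read beside the low Cdh1 values. Of 8 tested repressors and factors of epithelial-mesenchymal transition, 0 passed by limma in any comparison, and between 0 and 2 were below 0.05 before adjustment. Zeb2, a repressor of Cdh1, differed by 1.09 (SE 0.38, adjusted p = 0.0964) and Snai2 by -0.46 (SE 0.17, adjusted p = 0.131), closed minus open over both stages. Of 10 tested genes of epithelial activators and splicing factors, 3 rose and 3 fell in closed tissue over both stages (median -0.02), where 5.13% of all tested genes rose and 6.82% fell. Grhl3, which the mouse needs to close the posterior neuropore, was lower (-1.84, SE 0.15, adjusted p = 6.04e-06), and so was the epithelial splicing factor Esrp1 (-1.21, SE 0.14, adjusted p = 7.04e-05). Tfap2c, a factor of surface ectoderm and crest, was higher (1.66, SE 0.23, adjusted p = 0.000438). Esrp1 also was lower at E9.5 than at E8.5 in open tissue (-1.69, SE 0.18, adjusted p = 0.000251).

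**Figure D4:**
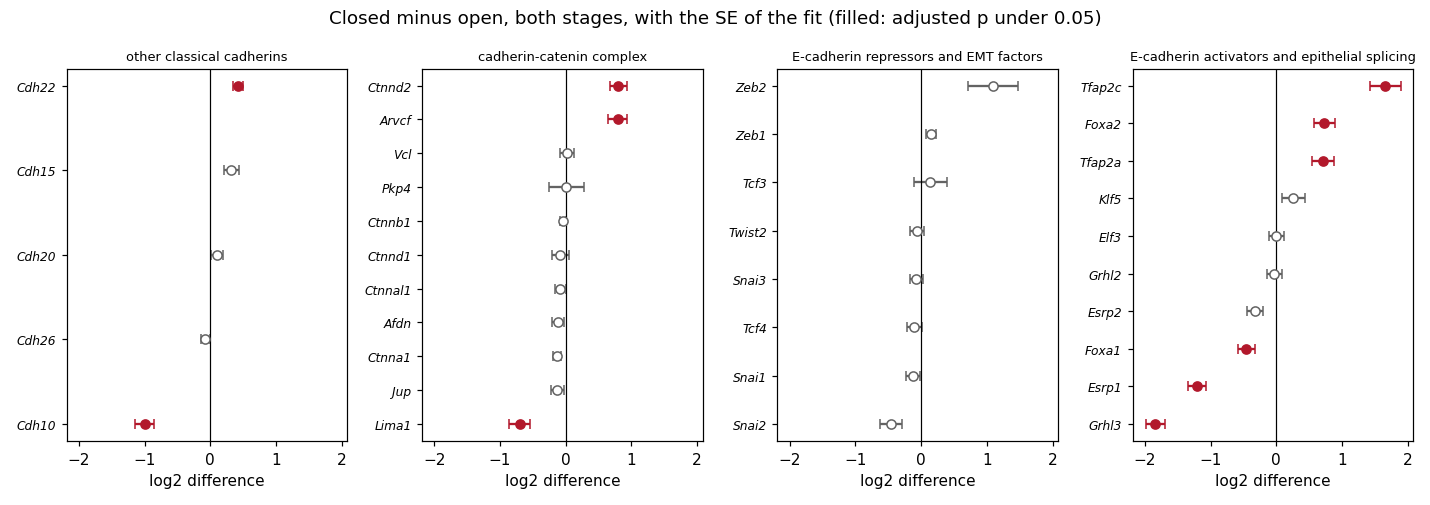
Log2 difference, closed minus open over both stages, of the tested genes of 4 lists (further classical cadherins, the cadherin-catenin complex, repressors and activators of E-cadherin), with the SE of the limma fit; filled points have an adjusted p below 0.05. In the complex Ctnnd2 and Arvcf lie near 0.80 and Lima1 at -0.70, the 8 repressors have open points, and Grhl3 lies at -1.84.

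Of 8 tested genes listed by name as N-cadherin signalling partners, 4 rose in closed tissue over both stages and 4 did not pass (median 0.42), where 5.13% of all tested genes rose. Whether their proteins act with N-cadherin in this tissue was not tested. The adhesion gene Nrcam rose by 3.61 (SE 0.16, adjusted p = 2.38e-08), and the receptor genes Fgfr2 and Fgfr3 rose by 3.47 (SE 0.22) and 1.94 (SE 0.12). The third FGF receptor gene of the list, Fgfr1, differed by 0.47 (adjusted p = 0.181) and did not pass. L1cam rose by 0.37 (adjusted p = 0.0475), while Robo1 (0.17) and Ncam1 (-0.23) did not pass. Gap43, a membrane protein of growing axons, was lower at E9.5 than at E8.5 in closed tissue (-1.49, SE 0.33, adjusted p = 0.0399). Of 9 genes of cadherin turnover, 1 passed, the protease gene Furin (-0.53, SE 0.14, adjusted p = 0.0257), and 0 of 6 genes of nectins and their partners passed by limma, with 0 below 0.05 before adjustment.

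The genes whose signal followed each member most closely over the 11 arrays are given as a description. For Cdh1 they were Jade2, Samd4 and Esrp1, with Pearson correlations of 0.961, 0.941 and 0.933. For Cdh6 they were Zadh2, Minar2 and Gm2102 (0.969, 0.965 and 0.964), and for Cdh11 Mkx, Rdh14 and Slc43a3 (0.962, 0.955 and 0.947). For Cdh2 they were Fam234b, Kdm4a and Gdap2 (0.938, 0.906 and 0.899), for Cdh3 Stard5, Synpo and Tmem63a (0.912, 0.877 and 0.855) and for Cdh4 Bid, Gm11772 and Cep44 (0.921, 0.903 and 0.891). All correlations share the same arrays and their quality, and the highest of 13338 genes are high by selection.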

How the data were processed

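The authors deposited log2 values for 45101 probe sets on each of 11 Affymetrix arrays (2.37 to 14.72), which were used unchanged. Per the labels' protocols, 50 ng of RNA from litter pools was labelled in 2 cycles, and 1 of 12 arrays, closed E8.5, was removed by the authors for quality. The submitters' processing notes name MAS5, without a version or role, so the normalization behind the values is not given in the sources used here, and detection calls were not used. Array number limits the precision, as the labels call the arrays biological replicates.

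Of the probe sets, 34945 carry 1 gene symbol. Not tested were those with several symbols (932), with none (9160) and 64 controls. Genes whose mean reached 4.3, the 40th percentile, were fitted as 4 group means with limma 3.58.1 in R 4.3.3 (eBayes with an intensity trend, 7 residual degrees of freedom), after a test on simulated data. The members and lists were chosen with earlier results of these data known. All members are named, with list genes of smallest p. The catenins Ctnnb1 and Ctnna1, Cdh5, Snai2, Fgfr1, L1cam, Robo1, Ncam1 and the single marker genes were chosen after their values were seen. Replicate numbers were taken to pair open and closed arrays: deviations from group means correlated at 0.308, 0.341 and 0.687 at E9.5 and 0.576 and 0.697 at E8.5, across genes. At E9.5 closed 1 with open 2 (0.317) and closed 2 with open 1 (0.264) correlated about as well, so the pairing of these numbers is uncertain. The 2 closed E8.5 arrays deviate by opposite amounts by construction, and closed 1 also correlated with open 3 there (0.309). Alternatives covered normalization, filter, probe set summary, moderation, weights, the block, RNA quality and arrays left out.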

Additional observations from a re-analysis of the deposited data

Results flagged for a closer look

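The difference of regions in Cdh11 was not the same at both stages: closed minus open was -0.95 at E9.5 and 0.34 at E8.5, an interaction of -1.29 (SE 0.25, adjusted p = 0.0303). Closed arrays were lower than open arrays at E9.5 in 3 of 3, and the E8.5 groups overlapped, with 8.53 and 8.97 in closed and 8.21 to 8.57 in open tissue. Groups of 3 or fewer arrays were not searched for single arrays that stand apart.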

How the results depend on the processing

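Counts of called members changed as follows. Without the filter, Cdh1 was added: 3 members at E9.5 (2 with it), 2 members at E8.5 and 2 over both stages for the regions (1 each with it), 2 for the stages in open tissue (1) and 1 in closed tissue (0). With a limit of 1 on the absolute difference, 0 members were called for the regions at either stage or over both. Without open E9.5 replicates 1 and 2 together, 1 was called for the regions at E9.5 (2), 0 for the stages in open tissue and 0 for the interaction. Array weights gave 3 for the regions at E9.5, with Cdh4 added, and 2 for the stages in open tissue, where 4301 in place of 670 genes passed. Quantile normalization and the 3-prime to 5-prime covariate each gave 1 for the stages in closed tissue. The interaction had 0 with the mean of probe sets and 0 with probe sets tested one by one (Cdh11 adjusted p = 0.0539). Leaving out each array in turn gave 1 to 1 for the regions at E8.5 and over both stages and for the stages in open tissue, 2 to 2 for the regions at E9.5, 0 to 1 for the stages in closed tissue and 0 to 1 for the interaction. The replicate block changed no call of a member (Cdh6 0.70, adjusted p = 0.00064 at E9.5). For the stages within a tissue, the block was instead the replicate number shared by E8.5 and E9.5 arrays, a pairing that was not checked. Over all genes, these counts differed by more than 1.5 times. The covariate gave 1519 against 957 for the regions at E8.5, 1764 against 1139 at E9.5, 730 against 323 for the stages in closed tissue and 297 against 167 for the interaction. Array weights gave 3424 for the regions at E9.5 and 215 for the stages in closed tissue, where fitting only the groups compared gave 150. Without open E9.5 replicates 1 and 2 there were 603 for the regions at E9.5, 182 for the stages in open tissue and 72 for the interaction. The limit of 1 left 454 genes for the regions at E9.5, 484 at E8.5 and 427 over both stages, and 219 and 161 for the stages in open and closed tissue. The block gave 2221 for the regions at E9.5 and 452 for the interaction. Leaving out 1 array gave counts past that ratio between 367 and 1262 for the stages in open tissue, 174 and 210 for closed tissue and 84 to 106 for the interaction. Causes were not tested.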
